A study of Mus musculus with 6 samples.

Results

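H3K9me3, trimethylated lysine 9 of histone H3, was mapped by CUT&Tag in bone marrow endothelial progenitor cells (EPCs) of mice, and its level was examined here at the promoters of predicted genes. Predicted genes are those whose symbols are only a model number (Gm) or a RIKEN cDNA clone name (Rik). Members were chosen from the authors' own annotation, as autosomal regions placed in a promoter, within 3 kb of an annotated transcription start, of a gene with a Gm or a Rik name. The rule took 2744 of the 58511 regions in the deposited tables, 2306 at Gm and 438 at Rik genes, and these belonged to 2392 genes. Every other autosomal promoter region, 9044 in all, is called a named-gene promoter below.

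The cells came from C57BL/6J mice aged 8 weeks, which were male (M-EPC), female (F-EPC) or ovariectomized female (OVX-EPC, operated at about 35 days). All groups were lineage-depleted bone marrow cells selected with magnetic beads for Sca-1 and CD31 and grown in EGM-2 medium. Each group had 2 libraries, made from cells set aside in duplicate. No source used here says that the duplicates came from separate mice, so the p-values measure only the spread between these libraries, which may be technical. The assay holds no expression of marker genes, so the cell type named in the labels could not be checked.

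Reads in the regions of a library numbered 288353 to 573821. Both F-EPC libraries had no reads over part of the genome, a larger part in replicate 1 than in replicate 2. F-EPC was therefore used only on chromosomes 1 and 10 to 15 and on chromosome 16 up to position 30557137, which held 26999 regions and 1231 of the members. These are called covered regions. They held all 288353 reads of F-EPC replicate 1 and 252356 of the 410439 reads of F-EPC replicate 2. The members took a median of 7 to 8 reads per region in the M-EPC and OVX-EPC libraries, so that a single region is known with little precision. M-EPC replicate 1 stood apart from M-EPC replicate 2 at named-gene promoters, which took 26.1% and 22.8% of autosomal region reads, and the median changes below move with the M-EPC library that is used.

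H3K9me3 is written by methyltransferases of the Suv39 and Setdb1 families and read by HP1 proteins, and it packs chromatin into a silent form. It is known above all from the satellite DNA beside centromeres, from transposable elements, and from the zinc finger gene arrays that encode repressors of those elements. Predicted genes include long noncoding RNAs, copies of spliced messages pasted back into the genome (processed pseudogenes), small RNA copies and open reading frames found in repeats. Some of them lie in repeated sequence of these kinds.

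Sequence set the members apart from named-gene promoters. Both are regions found as peaks of the mark, so their sequence make-up is not independent of it. By GENCODE M21, 32.1% of the members belonged to pseudogenes, 25.9% to small RNAs, 24.9% to long noncoding RNAs and 12.5% to protein-coding genes, and 4.66% carried the class TEC, used for transcripts still to be tested by experiment. Of the named-gene promoters 93.2% belonged to protein-coding genes. The distance to the start was at most 1 kb for 56.2% of the members and for 79.0% of the named-gene promoters. Only 11.2% of the members were CpG-rich, with GC above 50% and an observed to expected CpG ratio above 0.6, against 56.5%. At least 50% of the bases were repeat-masked in 22.2% of the members against 5.68%. In 16.2% of the members at least 50% of the 25-base words occurred more than once on the chromosomes, against 3.23%. Reads were 25 bases long at each end and those of low mapping quality had been removed, so the level of such members was measured less fully. Of the autosomal regions outside promoters, 1.29% were CpG-rich and 34.4% had at least 50% of their bases masked. In both traits the members lay between these regions and the named-gene promoters. The start of a named protein-coding gene, which for a named-gene promoter may be its own, lay within 1 kb of 6.56% of the members and of 76.7% of the named-gene promoters. Rik members stood between the Gm members and the named-gene promoters, with 33.6% CpG-rich against 6.98% of the Gm members.

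A group of strong members is shown first by its sequence, because its members share 1 tandem repeat. The best repeating member, at Gm10717 on chromosome 9, is built of a unit of 234 bases. Mouse major satellite, the repeat of pericentromeric heterochromatin and the textbook site of H3K9me3, has a unit of this length. No repeat library was used here to name the sequence. The unit below is followed by the best matching stretch of the strongest Gm21738 promoter on chromosome 14, read on the minus strand. The sequences are those of RefSeq GRCm38.p6, the build mm10, written 5′ to 3′ with each CG pair in capitals.
Gm10717, chr9:3031925-3032158, plus strand: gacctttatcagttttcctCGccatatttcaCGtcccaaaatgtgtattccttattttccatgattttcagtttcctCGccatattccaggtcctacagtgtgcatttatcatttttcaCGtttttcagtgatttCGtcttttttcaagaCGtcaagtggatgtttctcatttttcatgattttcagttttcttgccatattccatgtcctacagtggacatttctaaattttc
Gm21738, chr14:19418726-19418959, minus strand: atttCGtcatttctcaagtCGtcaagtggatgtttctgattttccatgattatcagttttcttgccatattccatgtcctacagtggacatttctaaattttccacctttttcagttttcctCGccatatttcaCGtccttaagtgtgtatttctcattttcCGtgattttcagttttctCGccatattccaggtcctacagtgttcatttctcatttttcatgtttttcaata
With up to 234 bases aligned to joined copies of the unit on either strand, 16 of the 2744 members reached 70% identity or more, against 1 of the 9044 named-gene promoters. The median best identity was 52.6% in members and 50.4% in named-gene promoters. The 16 were 14 members of 9 genes within chr9:2999976-3038173 and both Gm21738 promoters.

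A second set of sequences belongs to 2 members called in the comparison of F-EPC with M-EPC. Zinc finger arrays repeat every 84 bases, the length of a finger with its linker, and the linker gives a shared stretch of DNA. The called promoters of Gm12258 and Gm12256 on chromosome 11 both hold such units. They are given here with the match to the linker motif in capitals. The motif is the DNA that can encode the conserved linker between fingers, with the last base of each codon free.
Gm12258, chr11:58859441-58859524, plus strand: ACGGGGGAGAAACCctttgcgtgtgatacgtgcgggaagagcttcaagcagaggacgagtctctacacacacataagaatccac
Gm12258, chr11:58859525-58859608, plus strand: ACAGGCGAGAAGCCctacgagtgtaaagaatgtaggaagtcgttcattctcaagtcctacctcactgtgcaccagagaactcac
Gm12256, chr11:58890558-58890641, minus strand: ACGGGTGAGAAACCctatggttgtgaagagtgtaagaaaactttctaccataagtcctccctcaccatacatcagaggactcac
Gm12256, chr11:58890474-58890557, minus strand: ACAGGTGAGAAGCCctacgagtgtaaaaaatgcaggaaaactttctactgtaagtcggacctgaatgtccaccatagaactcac
The motif, searched on both strands, was present in 0.838% of the members, in 0.276% of the named-gene promoters and in 0.407% of all autosomal promoters. The members at Gm38231 and Gm25748 are shown because they were called lower in both comparisons with M-EPC or, for the Gm38231 region farthest from the start, in F-EPC. CG pairs are again in capitals in the first 300 bases of these regions. The Gm38231 regions held 1, 4 and 10 CG pairs in the order printed and the Gm25748 region held 2.
Gm38231, chr10:37128705-37129004, plus strand: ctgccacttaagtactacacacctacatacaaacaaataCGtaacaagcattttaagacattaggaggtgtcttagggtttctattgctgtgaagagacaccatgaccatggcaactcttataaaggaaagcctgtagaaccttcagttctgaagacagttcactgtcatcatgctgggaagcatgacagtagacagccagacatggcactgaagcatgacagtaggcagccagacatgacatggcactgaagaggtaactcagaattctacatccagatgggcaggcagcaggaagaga
Gm38231, chr10:37130855-37131154, plus strand: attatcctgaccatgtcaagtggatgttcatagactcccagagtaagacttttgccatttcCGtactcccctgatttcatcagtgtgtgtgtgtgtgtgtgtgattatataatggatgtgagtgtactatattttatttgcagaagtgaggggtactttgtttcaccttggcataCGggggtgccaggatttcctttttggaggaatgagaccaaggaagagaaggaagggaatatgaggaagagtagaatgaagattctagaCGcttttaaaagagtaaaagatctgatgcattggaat
Gm38231, chr10:37127937-37128236, plus strand: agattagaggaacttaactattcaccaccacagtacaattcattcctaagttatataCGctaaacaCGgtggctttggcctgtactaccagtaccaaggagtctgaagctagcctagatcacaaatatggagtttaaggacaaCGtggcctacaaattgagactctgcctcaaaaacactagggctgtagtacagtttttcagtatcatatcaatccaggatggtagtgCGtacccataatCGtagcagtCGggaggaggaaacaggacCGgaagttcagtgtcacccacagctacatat
Gm25748, chr1:64393258-64393557, plus strand: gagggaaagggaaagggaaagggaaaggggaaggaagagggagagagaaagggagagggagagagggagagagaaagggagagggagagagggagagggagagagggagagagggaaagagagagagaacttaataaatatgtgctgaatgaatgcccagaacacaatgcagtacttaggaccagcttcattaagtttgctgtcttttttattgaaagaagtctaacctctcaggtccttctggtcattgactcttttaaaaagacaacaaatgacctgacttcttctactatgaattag
The Gm25748 stretch opens with a long run of G and A and holds 0 CG pairs.

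The highest level of any member was that of Gm26917. The normalized values given here are the deposited signal, averaged over the 4 libraries of M-EPC and OVX-EPC. Gm26917, a lincRNA on chr17:39844877-39845276 whose locus holds ribosomal RNA sequence, had the highest mean value, 1770. Of its 25-base words 0.266% occurred more than once on the chromosomes, a count that misses copies absent from those sequences. With no control library among the samples, an effect of copy number on this level was not tested. Its promoter took 1707 and 1724 reads per M-EPC library and 1789 and 1977 per OVX-EPC library. The groups did not overlap in reads but overlapped on the normalized scale. The means there were 1700 (SD 196) in M-EPC and 1840 (SD 41.6) in OVX-EPC. The difference did not pass the test (log2 fold change 0.12 ± 0.18 SE, limma adjusted p = 0.768).

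Next came the predicted protein-coding gene Gm10801 on chr2:98662504-98662903, with 522 and 627 M-EPC reads and 693 and 629 OVX-EPC reads. Its neighbour Gm10800 had 431 and 528 M-EPC reads and 502 and 532 OVX-EPC reads, which overlapped. On the normalized scale its groups did not overlap, with means of 470 (SD 9.87) in M-EPC and 506 (SD 3.55) in OVX-EPC. That difference did not pass the test (limma adjusted p = 0.815). The best identity of Gm10801 and Gm10800 to the 234-base unit, 60.7% and 62.0%, was below the limit set above. At Gm21738 on chr14:19418566-19418965, in covered sequence, the M-EPC libraries had 489 and 540 reads, the F-EPC libraries 659 and 572, and the OVX-EPC libraries 590 and 597. F-EPC libraries are deeper than the others in covered regions, and the log2 fold change of F-EPC over M-EPC was -0.14 (SE 0.0995, limma adjusted p = 0.414).

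The 16 members made of the tandem repeat took 5.51% and 5.80% of all reads in members in the M-EPC libraries and 7.23% and 7.12% in the OVX-EPC libraries. The log2 fold change of OVX-EPC over M-EPC was positive in 15 of the 16, with a median of 0.33 and a range from -0.17 to 0.54, and none (0 of 16) passed the test (smallest limma adjusted p = 0.238). These members share sequence and so share reads, and they count as 1 repeat rather than as 16 observations. From 34.6% to 100% of their 25-base words occurred more than once on the chromosomes.

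**Figure D1:**
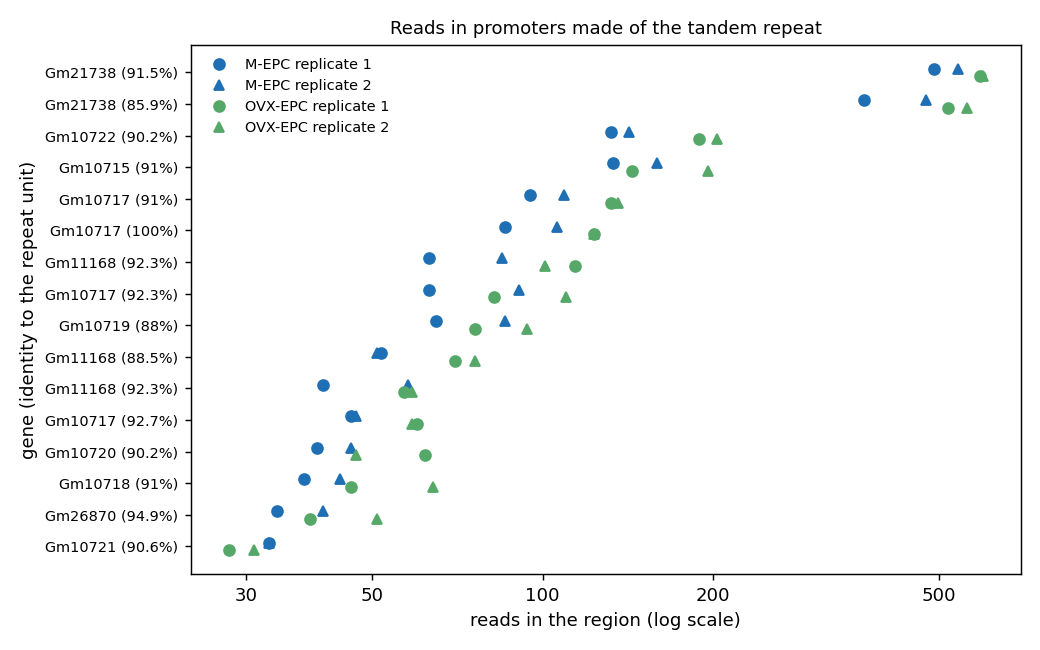
Reads per library (log scale) in the 16 promoters built of the 234-base repeat, ordered by mean level, for the 2 M-EPC (blue) and 2 OVX-EPC (green) libraries. The OVX-EPC libraries lie to the right of the M-EPC libraries in most rows, by a median log2 fold change of 0.33 on the normalized scale, and no single region passed the test.

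Among Rik members the levels were much lower. B230307C23Rik on chr16:98010498-98010897 led with a mean value of 84.1, and its region repeated every 168 bases with 77.0% identity. It took 92 and 79 M-EPC reads and 80 and 90 OVX-EPC reads. 1700018B08Rik on chromosome 8 took 96 and 96 M-EPC reads and 60 and 66 OVX-EPC reads, without overlap (log2 fold change -0.61 ± 0.23 SE, limma adjusted p = 0.212). 4932412D23Rik, a lincRNA whose promoter lies within 1 kb of a start of Zbtb20, took 69 and 76 M-EPC reads and 60 and 63 OVX-EPC reads. These differences did not pass the test.

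The question of how much of the mark lies at predicted genes was answered by the share of autosomal region reads that fell in members. It was 6.53% and 6.43% in the M-EPC libraries and 6.59% and 6.59% in the OVX-EPC libraries, with Wilson 95% confidence intervals from 6.37% to 6.66% that cover counting error only. In covered regions the M-EPC libraries gave 5.93% and 5.86%, the F-EPC libraries 5.75% and 5.77%, and the OVX-EPC libraries 5.91% and 5.90%. OVX-EPC exceeded M-EPC by 0.106 percentage points over all autosomes, by 0.0149 points when only members at 10 or more in 2 libraries were counted, and F-EPC fell by 0.132 points against M-EPC in covered regions. Each of the 3 comparisons gave p = 0.333 by a two-sided exact permutation test, the smallest that 2 libraries against 2 can give, and the adjusted value is no smaller. Named-gene promoters moved further, from 24.5% ± 2.31 (SD, n = 2) of the reads in M-EPC to 21.1% ± 0.148 (SD, n = 2) in OVX-EPC, with the same exact p = 0.333.

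**Figure D2:**
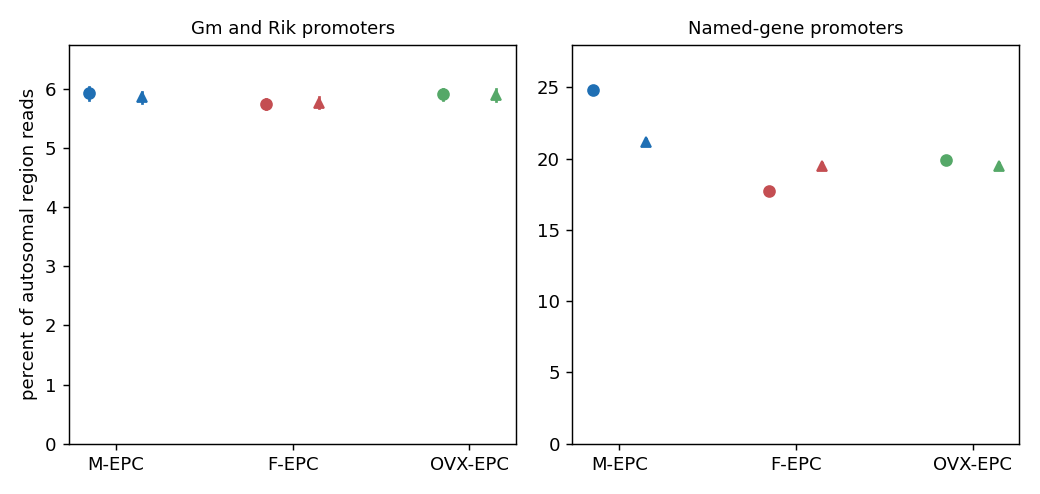
Percent of autosomal region reads, in covered regions, that fell in Gm and Rik promoters (left) and in named-gene promoters (right), for each library (circles replicate 1, triangles replicate 2, bars Wilson 95% intervals). The members stay between 5.75% and 5.93%, while the named-gene promoters range from 17.7% to 24.8%.

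Changes in single regions were tested with limma on log2(value + 1), and a fold change on this scale understates that of weak regions. A region was called at a Benjamini-Hochberg adjusted p under 0.05, adjusted over all regions tested. Members passed the filter on low values, at least 10 in at least 2 of the 4 libraries, in 991 of 2743 cases for OVX-EPC against M-EPC. The counts were 470 of 1231 for F-EPC against M-EPC and 433 of 1231 for OVX-EPC against F-EPC. Some calls named below passed the filter only through the M-EPC libraries, so a high M-EPC value helped to bring them into the test. They are Gm25748 and Gm6960 for OVX-EPC against M-EPC. For F-EPC against M-EPC they are Gm25748, Gm12256, Gm38157 and Gm5786. Other calls had only replicate 2 of the compared group at 10 or more, so they too needed an M-EPC library to pass. They are Gm38231 at chr10:37128705-37129104 for OVX-EPC against M-EPC. For F-EPC against M-EPC they are Gm38231 at chr10:37130855-37131254 and Gm37030.

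The medians of members lay closer to 0 than those of named-gene promoters in both comparisons with M-EPC. The median log2 fold change of OVX-EPC over M-EPC was -0.114 in the 991 members, -0.303 in 4702 named-gene promoters and -0.172 in all autosomal regions tested. For F-EPC over M-EPC it was -0.142 in the 470 members, -0.434 in 1955 named-gene promoters and -0.195 in all autosomal regions tested. In the autosomal regions outside promoters the medians were -0.097 and -0.080, so the members were no closer to 0 than these. The members thus lay 0.189 above the named-gene promoters in the first comparison and 0.292 in the second. The standard errors of these scores, from the difference between the 2 replicates of each group, were 0.0676 and 0.104. Between OVX-EPC and F-EPC the score was -0.088 with a standard error of 0.0783. Only members that passed the filter enter these medians. Without the filter the medians were -0.035 in members and -0.003 in all autosomal regions for OVX-EPC over M-EPC, and 0.015 and 0.055 for F-EPC over M-EPC, while the gap to named-gene promoters was 0.236 and 0.396. The same M-EPC libraries enter both comparisons. With TMM factors the median of all autosomal regions tested moved from -0.172 to -0.011 for OVX-EPC against M-EPC. The sign of the members' own median turned with it, to 0.037, while the gap to named-gene promoters stayed at 0.196. For F-EPC against M-EPC the corresponding values were -0.058 over all regions, -0.024 in members and 0.287 for the gap. Without M-EPC replicate 1 the gap for OVX-EPC against M-EPC was 0.098.

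**Figure D3:**
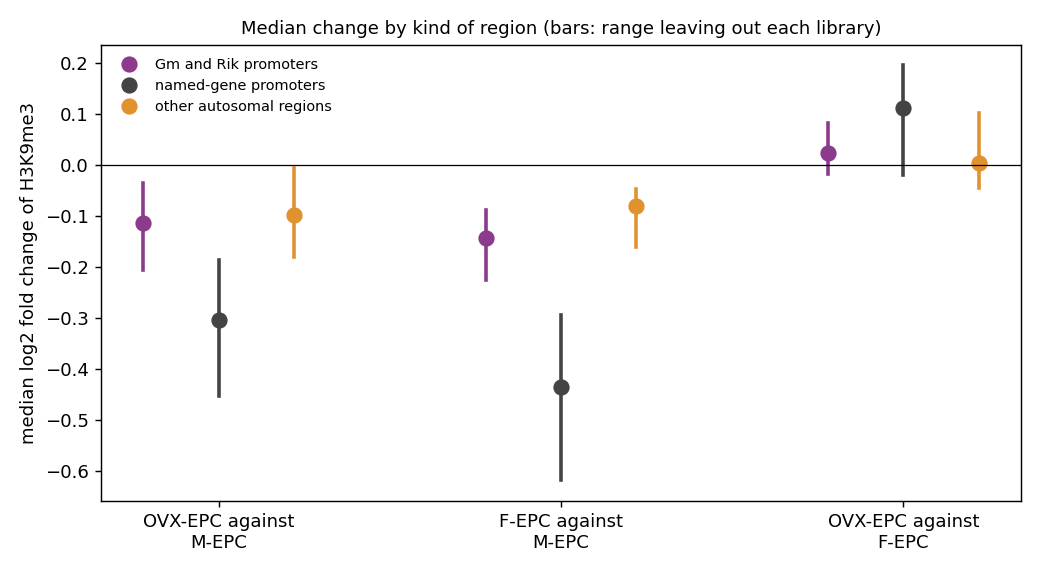
Median log2 fold change of tested Gm and Rik promoters, named-gene promoters and other autosomal regions in each comparison (points), with the range of the median when each library is left out in turn (bars). The members lie close to the other autosomal regions and above the named-gene promoters in both comparisons with M-EPC.

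Members had the higher median also within classes of sequence, by CpG content, repeated 25-base words, masking or a coding start nearby, in both comparisons with M-EPC. The small class with an 84-base period, described below, had it the other way. Among CpG-rich promoters the median for F-EPC over M-EPC was -0.336 in 74 members and -0.469 in 1351 named-gene promoters. Among the others it was -0.060 in 396 members and -0.352 in 604 named-gene promoters. For OVX-EPC over M-EPC the CpG-rich medians were -0.265 and -0.323, and those of the others -0.076 and -0.250. Members near the start of a named coding gene had a median of -0.243 for OVX-EPC over M-EPC, against -0.095 for the rest. Members rich in repeated 25-base words had medians near 0, -0.035 for OVX-EPC and 0.016 for F-EPC over M-EPC, against -0.139 and -0.184 in the rest. How much of the gap CpG content, repeats or the start of a neighbouring gene account for was not tested.

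**Figure D4:**
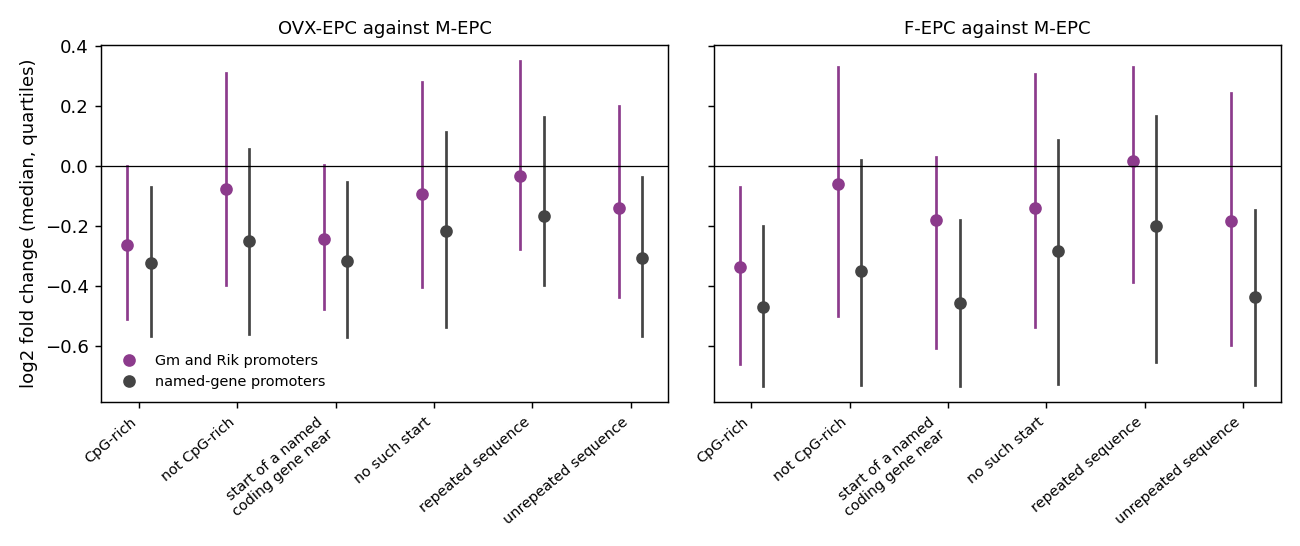
Median (points) and quartiles (bars) of the log2 fold change by sequence class, for Gm and Rik promoters (purple) and named-gene promoters (grey), in OVX-EPC against M-EPC (left) and F-EPC against M-EPC (right). The median of the members is the higher of each pair, for example -0.336 against -0.469 in CpG-rich promoters for F-EPC.

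By kind of gene, promoters of small RNAs had a median of -0.008 in 238 for OVX-EPC over M-EPC and 0.077 in 120 for F-EPC over M-EPC. Pseudogenes had medians of -0.063 and -0.024. Long noncoding RNAs were lower, at -0.254 in 265 and -0.203 in 122. TEC promoters, at -0.223 in 38 and -0.535 in 31, had the lowest median of the classes for F-EPC over M-EPC, and protein-coding members had -0.332. In autosomal regions outside promoters the medians in the same order of comparisons were 0.034 and 0.117 at small RNAs and 0.066 and 0.168 at pseudogenes. They were -0.077 and -0.111 at long noncoding RNAs and -0.124 and 0.006 at TEC genes. Gm members had a median of -0.079 and Rik members of -0.249 for OVX-EPC, and -0.091 and -0.235 for F-EPC. Members with 3 or more Zfp genes within 100 kb numbered 26, of which 13 were tested for OVX-EPC over M-EPC with a median of -0.14 and 0 called, and 3 for F-EPC over M-EPC with a median of -0.394 and 1 called.

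OVX-EPC differed from M-EPC at 4 members, all lower in OVX-EPC and none (0) higher. Over all regions tested, 0.402% were called lower and 0.0473% higher, and the 4 were 0.404% of the 991 members tested, so members were called about as often as any region. At an unadjusted p under 0.05 there were 148 members, 14.9%, against 16.1% of all regions. DESeq2 called 1, giving no adjusted p to 772 of 1117 members, and edgeR called 7. With TMM factors 3 were lower and 1 higher. Without M-EPC replicate 1, or without M-EPC replicate 2, 1 was called, and without OVX-EPC replicate 2 there were 10. Each of the 4 lost its call when 1 library or another was left out.

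Gm38231 held 2 of the 4. It is a TEC gene on chromosome 10, and its 3 members lie within 3.32 kb on both sides of it. The region chr10:37128705-37129104 took 44 and 53 M-EPC reads, 30 and 19 F-EPC reads and 9 and 12 OVX-EPC reads. All M-EPC libraries were above all others, with OVX-EPC the lowest (OVX-EPC over M-EPC -2.12 ± 0.31 SE, limma adjusted p = 0.000335). The region chr10:37130855-37131254 took 55 and 50 M-EPC reads, 9 and 11 F-EPC reads and 12 and 14 OVX-EPC reads. Again both M-EPC libraries stood apart (-1.94 ± 0.30 SE, limma adjusted p = 0.000624). The remaining region, chr10:37127937-37128336, took 34 and 27 M-EPC reads, 13 and 14 F-EPC reads and 12 and 12 OVX-EPC reads, and missed the threshold for OVX-EPC (-1.28 ± 0.33 SE, limma adjusted p = 0.0855). DESeq2 gave the first region an adjusted p of 0.0489 and the second one of 0.0624.

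Gm25748, a predicted miRNA gene, was called at chr1:64393258-64393657, which is 2677 bp from its start. It took 25 and 35 M-EPC reads, 10 and 3 F-EPC reads and 1 and 6 OVX-EPC reads (OVX-EPC over M-EPC -3.04 ± 0.51 SE, limma adjusted p = 0.00147). The M-EPC libraries were again above all others. Gm6960, a pseudogene on chr18:60426304-60426703 with the region over its exon, took 25 and 17 M-EPC reads and 3 and 5 OVX-EPC reads (-2.15 ± 0.48 SE, limma adjusted p = 0.0374). Of its 25-base words 56.1% occurred more than once, so reads of a copy elsewhere may have been split or removed.

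The members with the smallest p on the other side were higher in OVX-EPC without passing the test. C130026I21Rik at chr1:85256990-85257389 took 9 and 16 M-EPC reads, 24 and 23 F-EPC reads and 27 and 36 OVX-EPC reads (OVX-EPC over M-EPC 1.29 ± 0.33 SE, limma adjusted p = 0.0799). Gm26090, a snoRNA gene on chromosome 3, took 20 and 26 M-EPC reads and 48 and 49 OVX-EPC reads (1.05 ± 0.28 SE, limma adjusted p = 0.0894). Gm10552 at chr1:85614458-85614857, over an exon of Sp140, took 8 and 15 M-EPC reads, 28 and 28 F-EPC reads and 28 and 27 OVX-EPC reads (1.24 ± 0.35 SE, limma adjusted p = 0.115). M-EPC had the fewest reads of the groups measured at all 3. edgeR on the recovered reads called each of them, with adjusted p of 0.024, 0.0159 and 0.0457. Both chromosome 1 regions lie in sequence repeated elsewhere, 78.5% and 66.0% by 25-base words.

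F-EPC differed from M-EPC at 15 members of 13 genes, 12 Gm and 3 Rik regions, all lower in F-EPC, with log2 fold changes from -2.65 to -0.89. This was 3.19% of the 470 members tested, with 1.62% of all regions tested called lower, and 0 members were called higher, with 0.172% of all regions. At an unadjusted p under 0.05 there were 105 members, 22.3%, against 22.8% of all regions. TEC genes, 31 of those tested, held 6, of which 3 were the adjoining regions of Gm38231. Of 264 autosomal regions tested at TEC genes outside promoters, 4 were called lower. DESeq2 called 1 and edgeR 11 members, and TMM factors left 5. The counts that follow, with a library left out, come from fits that also held the OVX-EPC libraries and used new size factors. Without M-EPC replicate 1 there were 4, of which 1 was higher, and without M-EPC replicate 2 there were 28, of which 7 were higher. Without F-EPC replicate 1 there were 9 and without F-EPC replicate 2 there were 6. For the same 15 members the log2 fold change of OVX-EPC over M-EPC ran from -3.04 to -0.31 with a median of -0.94, and 3 of them were called. Both comparisons use the same M-EPC libraries.

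**Figure D5:**
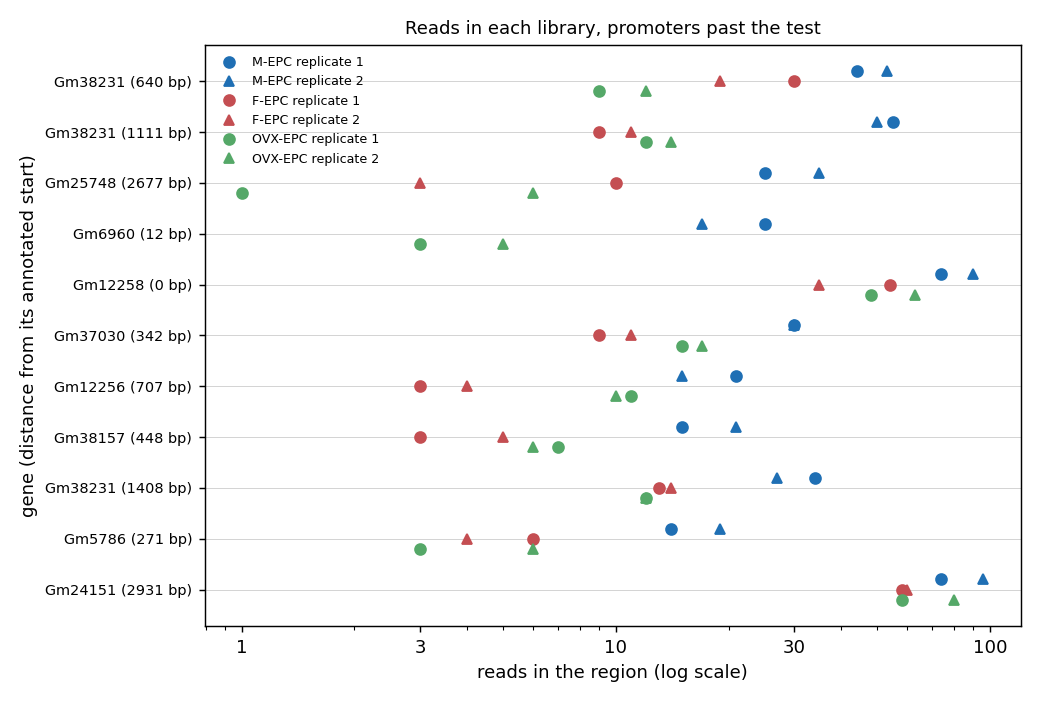
Reads per library (log scale) in the 11 promoters named from the calls against M-EPC, each labelled with its gene and its distance from the annotated start, for M-EPC (blue), F-EPC (red) and OVX-EPC (green). Gm6960 has no F-EPC value because it lies outside the covered regions, and the M-EPC libraries hold the most reads in most rows.

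The 10 with the smallest p included all 3 Gm38231 regions. Among these, chr10:37130855-37131254 fell the furthest (F-EPC over M-EPC -2.65 ± 0.32 SE, limma adjusted p = 2.92e-05), and DESeq2 called it as well, with an adjusted p of 0.00053. The others gave -1.37 ± 0.28 SE and -1.48 ± 0.34 SE, with limma adjusted p of 0.0157 and 0.0259. At Gm25748 the value was -2.56 ± 0.41 SE (limma adjusted p = 0.00219). Of the 10, 8 lost the call when 1 library or another was left out. Those that kept it were Gm38231 at chr10:37130855-37131254 and Gm37030.

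Zinc finger sequence lay under 3 of the 10. Gm12258, a protein-coding gene, was called at chr11:58859393-58859792, over its exon, where the libraries held 74 and 90 M-EPC reads, 54 and 35 F-EPC reads and 48 and 63 OVX-EPC reads (F-EPC over M-EPC -1.28 ± 0.23 SE, limma adjusted p = 0.00572). Gm12256, at chr11:58890417-58890816 over an exon of Zfp39, had 21 and 15 M-EPC reads, 3 and 4 F-EPC reads and 11 and 10 OVX-EPC reads (-2.40 ± 0.51 SE, limma adjusted p = 0.0176). Gm24151, a snoRNA gene whose region at chr11:62779916-62780315 lies over an exon of Zfp286, had 74 and 96 M-EPC reads, 58 and 60 F-EPC reads and 58 and 80 OVX-EPC reads (-0.89 ± 0.21 SE, limma adjusted p = 0.0337). For OVX-EPC over M-EPC the log2 fold changes of the 3 were -0.57, -0.72 and -0.31, and those over F-EPC 0.67, 1.64 and 0.54, and none (0) passed the test.

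Zinc finger repeats were looked for in all members after these values had been seen, as a description with no test. An 84-base period, with at least 50% identity, was the best period of 15 members and 14 named-gene promoters, 0.547% and 0.155%, and 11 of each also held the linker motif 2 or more times. Of the 15, 3 were tested for F-EPC against M-EPC, and these are the 3 above. Gm18182, also in covered sequence, was below the filter there and had more reads in both F-EPC libraries than in either M-EPC library. The named-gene promoters of this kind numbered 5 in that test, with a median of -0.033 and 0 called. Named-gene promoters with 3 or more Zfp genes within 100 kb had a median of -0.552 with 3 of 24 called lower in that test, and other autosomal regions of this kind a median of -0.523 with 2 of 54. For OVX-EPC over M-EPC, 14 were tested with a median of -0.242, 71.4% of them negative and 0 called, and the log2 fold changes ran from -0.80 at Gm6712 to 1.42 at Gm18182. Gm18182 had 5 and 6 M-EPC reads, 16 and 9 F-EPC reads and 16 and 17 OVX-EPC reads. Among those outside covered sequence, Gm21836 had 16 and 24 M-EPC reads and 29 and 36 OVX-EPC reads, higher in OVX-EPC without overlap (0.68 ± 0.30 SE, limma adjusted p = 0.273). Gm24082 on chromosome 5 had 120 and 100 M-EPC reads and 64 and 79 OVX-EPC reads, lower without overlap (-0.63 ± 0.23 SE, limma adjusted p = 0.21). Gm21028 on chromosome 7, the most regular array of the set, had 26 and 31 M-EPC reads and 39 and 29 OVX-EPC reads, which overlap.

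The remaining calls of the 10 were at Gm37030, Gm38157 and Gm5786. Gm37030, a processed pseudogene on chromosome 1, had 30 and 30 M-EPC reads, 9 and 11 F-EPC reads and 15 and 17 OVX-EPC reads (F-EPC over M-EPC -1.86 ± 0.35 SE, limma adjusted p = 0.00735). Gm38157, a TEC gene within an intron of Dst, had 15 and 21 M-EPC reads, 3 and 5 F-EPC reads and 7 and 6 OVX-EPC reads (-2.27 ± 0.48 SE, limma adjusted p = 0.0182). Gm5786, a processed pseudogene on chromosome 12, had 14 and 19 M-EPC reads, 6 and 4 F-EPC reads and 3 and 6 OVX-EPC reads (-1.89 ± 0.45 SE, limma adjusted p = 0.0337). In each of these M-EPC had the most reads, and at Gm37030 and Gm38157 both OVX-EPC libraries had more reads than either F-EPC library.

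No member was called higher in F-EPC. The 3 with the smallest p in that direction were Gm11541, with 5 and 9 M-EPC reads, 25 and 24 F-EPC reads and 15 and 23 OVX-EPC reads (1.36 ± 0.38 SE, limma adjusted p = 0.0627). Gm23971, an snRNA gene, had 7 and 5 M-EPC reads, 22 and 20 F-EPC reads and 9 and 10 OVX-EPC reads (1.30 ± 0.41 SE, limma adjusted p = 0.0869). Gm11284, a processed pseudogene, had 4 and 4 M-EPC reads, 24 and 12 F-EPC reads and 11 and 12 OVX-EPC reads (1.5 ± 0.5 SE, limma adjusted p = 0.102). Each had more reads in both F-EPC libraries than in either M-EPC library.

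OVX-EPC and F-EPC, which differ in ovariectomy alone among the labelled factors, were compared in 433 members, and limma called none (0) of them, with 0.0127% of all regions called. At an unadjusted p under 0.05 there were 32 members, 7.39%, against 6.22% of all regions tested. DESeq2 and edgeR also called 0, with 5 and 34 members at an unadjusted p under 0.05.

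The smallest p belonged to Gm21963, a processed pseudogene on chr13:62778362-62778761 within Gm5141, with 34 and 30 F-EPC reads and 41 and 51 OVX-EPC reads (OVX-EPC over F-EPC 0.84 ± 0.26 SE, limma adjusted p = 0.768). Gm37447, a TEC gene within Dis3l2, had 41 and 28 M-EPC reads, 18 and 16 F-EPC reads and 24 and 28 OVX-EPC reads (OVX-EPC over F-EPC 0.91 ± 0.32 SE, limma adjusted p = 0.768). The same region was called lower for F-EPC against M-EPC (-1.33 ± 0.33 SE, limma adjusted p = 0.0371), outside the 10 with the smallest p. The second Gm12258 region, chr11:58860716-58861115, had 28 and 29 M-EPC reads, 22 and 29 F-EPC reads and 33 and 38 OVX-EPC reads (0.80 ± 0.29 SE, limma adjusted p = 0.768). OVX-EPC was above F-EPC in both libraries at all 3.

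In the other direction stood Gm11425, a processed pseudogene on chr11:83026088-83026487, with 32 and 27 M-EPC reads, 66 and 59 F-EPC reads and 27 and 29 OVX-EPC reads (OVX-EPC over F-EPC -0.79 ± 0.25 SE, limma adjusted p = 0.768). Gm24554, a snoRNA gene, had 8 and 8 M-EPC reads, 19 and 21 F-EPC reads and 3 and 14 OVX-EPC reads (-1.13 ± 0.45 SE, limma adjusted p = 0.768). Gm26896, a lincRNA, had 11 and 9 M-EPC reads, 23 and 25 F-EPC reads and 11 and 9 OVX-EPC reads (-0.87 ± 0.35 SE, limma adjusted p = 0.768). F-EPC was above both other groups in reads at all 3, and the differences did not pass the test.

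The gene with the most members was 4930402H24Rik, a protein-coding gene on chromosome 2 with 5. Its CpG-rich start beside Atrn, chr2:130906241-130906640, had 12 and 16 M-EPC reads and 6 and 6 OVX-EPC reads, without overlap (-1.09 ± 0.47 SE, limma adjusted p = 0.263). Another CpG-rich start, chr2:130839773-130840530, had 12 and 9 M-EPC reads and 11 and 11 OVX-EPC reads. The next genes, tied at 4 members and taken in alphabetical order, were C130026I21Rik and Gm10717. The start of C130026I21Rik, chr1:85269905-85270304, had 41 and 53 M-EPC reads, 82 and 75 F-EPC reads and 71 and 78 OVX-EPC reads (OVX-EPC over M-EPC 0.65 ± 0.24 SE, limma adjusted p = 0.209). Its log2 fold changes for OVX-EPC over M-EPC were positive in all 4 regions, from 0.34 to 1.29, and none (0) was called. The lowest of them was -0.09 without M-EPC replicate 1. At least 59.3% of the 25-base words of each region were repeated, so these are not independent readings. The 4 Gm10717 regions are among the 16 tandem-repeat members, with 46 to 109 reads in M-EPC libraries and 59 to 136 in OVX-EPC libraries.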

How the data were processed

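CUT&Tag for H3K9me3 was performed by the authors on 6 libraries, 2 in each of 3 groups named from the labels. Per the study's methods the authors aligned 25-base paired reads to mm10 with Bowtie2, dropped duplicates and poorly mapped reads, and found peaks with MACS. The labels list BWA and MACS2 instead, so the aligner is not settled. Removing duplicates caps strong regions and the mapping filter lowers repeats. The 3 tables the authors deposited, 1 per comparison, give every region the signal of each of 4 libraries, scaled by 1 size factor a library. The deposited tables also hold the authors' mean signal, log2 fold change, p-value and adjusted p-value, which were not used. Dividing each deposited signal by the value of 1 read gave whole reads for 100% of the values (tolerance 0.01), and these reads are printed. Depth, as reads in regions, was 288353 to 573821 per library.

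limma 3.58.1 (R 4.3.3) with a mean-variance trend was fitted to log2(value + 1), without covariates, for every region of a table with at least 10 in at least 2 libraries. Comparisons with F-EPC used covered regions only. edgeR 4.0.16 and DESeq2 1.42.0 were run on the recovered reads as alternatives. The other alternatives were a pseudocount of 0.1, no filter, a minimum of 30, TMM factors, a replicate block and leaving out each library. In comparisons with F-EPC, single-region fits without a library took in all 3 groups, with new size factors. Their calls can therefore differ for reasons besides the library left out. The limma step was also run on simulated counts, with changes planted only in regions deeper than most members. That run does not show how the test performs at the depth of a typical member. GC content, CpG ratio, masking, period (the shift of 20 to 300 bases with the best identity) and repeated 25-base words came from RefSeq GRCm38.p6, and biotypes and starts from GENCODE M21.

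The members and lists were chosen with earlier results of these data known. Named are the calls, or the 10 with the smallest p per direction when over 10 were called, the 3 members with the smallest p per direction, the 4 strongest Gm and 4 strongest Rik regions, and the 3 genes with the most members. The tandem-repeat and zinc finger descriptions were added after values were seen, and the members named there follow from them.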

Additional observations from a re-analysis of the deposited data

Results flagged for a closer look

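A pair of values were picked out because both F-EPC libraries and both OVX-EPC libraries lay on opposite sides of both M-EPC libraries, in reads per covered library total. At the second Gm12258 region, chr11:58860716-58861115, OVX-EPC exceeded F-EPC by 0.80 on the log2 scale. At Gm21738, chr14:19418566-19418965, it did so by 0.29. Neither passed the test of OVX-EPC against F-EPC itself, where limma gave an adjusted p of 0.768 for both.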

How the results depend on the processing

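For OVX-EPC against M-EPC, 4 members were called. DESeq2 called 1, edgeR 7, a minimum of 30 gave 7 and no filter 7, and leaving out each library gave 1 to 10. For F-EPC against M-EPC, 15 were called. DESeq2 called 1, TMM factors left 5, and leaving out each library gave 4 to 28. For OVX-EPC against F-EPC the count was 0 under each alternative. The replicate block gave 5, 13 and 0 calls. The shared replicate numbers do not pair the libraries, since same-numbered deviations had correlations of -0.0179, -0.0522 and -0.0311.

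The gap between members and named-gene promoters ranged from 0.098 to 0.248 on leaving out each library for OVX-EPC against M-EPC. For F-EPC against M-EPC it ranged from 0.203 to 0.400, and a minimum of 30 gave 0.098. For OVX-EPC against F-EPC it ranged from -0.192 to 0.002, turning sign without F-EPC replicate 1 (0.002), and with a minimum of 30 (0.011). The cause was not tested. The member share kept its direction under every alternative run, but its size moved. For OVX-EPC against M-EPC, 0.106 points became 0.0149 with members at 10 or more (exact permutation p = 1.0), 0.04 without the tandem-repeat members and Gm26917 (chosen after seeing the data) and 0.0554 without M-EPC replicate 2. For F-EPC against M-EPC, -0.132 became -0.255 with members at 10 or more, and for OVX-EPC against F-EPC, 0.143 became 0.0604 within 1 kb of the start.

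Over 85 fits of named regions and their alternatives, 793 values kept their sign and side of the threshold, 48 lost a call, 11 gained one and 23 changed sign, the last in 10 fits of 9 genes, none of them called. For OVX-EPC over M-EPC, TMM factors gave 0.07 at Gm11425, 0.13 at Gm26896 and 0.13 at B230307C23Rik, edgeR 0.06, 0.14 and 0.13, and DESeq2 0.07 at Gm11425 and 0.14 at B230307C23Rik. Leaving out each library there gave -0.32 to 0.16 at Gm11425, -0.25 to 0.23 at Gm26896, -0.17 to 0.30 at Gm21963, -0.77 to 0.00 at Gm37447, -0.25 to 0.22 at B230307C23Rik, -0.24 to 0.37 at 4930402H24Rik and -0.09 to 0.77 at C130026I21Rik. For OVX-EPC over F-EPC it gave -0.31 to 0.20 at Gm11541, -0.59 to 0.16 at Gm11284 and -0.34 to 0.12 at C130026I21Rik.

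With a median of 7 to 8 reads per member, small changes were not detectable at this depth, and 1752 of the 2743 members were below the filter for OVX-EPC against M-EPC.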
